A study of Xenopus laevis with 6 samples.

Results

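The genes described here are the ligands, receptors and secreted antagonists of Wnt signalling, with the main proteins that pass the signal on, in the early gastrula of the African clawed frog Xenopus laevis. They were chosen by name, with earlier results of these data known. A probe set belonged to the group by its single gene symbol on the array platform, without the suffix for the gene copy. The symbol had to be a wnt, fzd, sfrp, dkk, dvl, tcf7 or rspo gene, or 1 of a further set. That set was frzb, frzb2, lrp5, lrp6, ror1, ror2, ryk, ptk7, vangl1, vangl2, prickle1, lef1, ctnnb1, axin1, axin2, wif1 and notum. The rule gave 97 of the 32539 probe sets that are not array controls. They stood for 66 of 11303 gene copies with 1 symbol, and for 53 different symbols once the copy suffix was dropped. The suffixes L and S mark the copies on the 2 subgenomes of this allotetraploid species. Among the members, 34 copies were L, 29 were S and 3 had no suffix (frzb, wnt2b-b and wnt5a-a).

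Affymetrix arrays for this species, which read a transcript through a group of short probes called a probe set, were hybridised with total RNA from whole embryos at Nieuwkoop and Faber stage 10.5. By the labels, 3 samples came from embryos that received a mispaired control morpholino and 3 from embryos that received a morpholino against Ext1, an enzyme that extends heparan sulfate chains. A morpholino is an antisense oligonucleotide that blocks translation or splicing of its target. Each embryo received 20 ng at the 2-cell stage, and 5 embryos were pooled for each RNA sample. The labels name no other allele or agent, and do not say whether samples came from separate clutches. The series text pairs control and experimental samples, and the pairs were taken to follow the replicate number. A pool of whole embryos mixes all regions of the gastrula, so fewer cells of a type and less RNA per cell cannot be told apart in any value given here.

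Wnt proteins are secreted, lipid-modified ligands. In the beta-catenin branch, a ligand bound to a Frizzled receptor and to LRP5 or LRP6 stops the Axin complex from marking beta-catenin for destruction, and beta-catenin then acts with TCF/LEF factors on target genes. In the planar polarity branch, Frizzled, Dishevelled, Vangl and Prickle proteins act on cell shape and on convergent extension, the narrowing and lengthening of the gastrula's mesoderm. In Xenopus, maternal beta-catenin sets up the dorsal side before zygotic transcription begins, zygotic Wnt8a then acts in ventral and lateral mesoderm, and the dorsal organizer secretes Wnt antagonists. Heparan sulfate proteoglycans bind Wnt proteins outside the cell, which is why these genes bear on a study of Ext1.

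The deposited signals hold no comparison between the morpholino groups for any of these genes. For wnt8a.L the signal was 3669.71, 3637.02 and 3738.61 in control morpholino samples 1, 2 and 3, and 3630.70, 3757.42 and 3747.92 in Ext1 morpholino samples 1, 2 and 3. For ctnnb1.L, which encodes beta-catenin, the brightest probe set gave 12061.53, 11954.09 and 12287.98 in the controls and 11933.30, 12349.81 and 12318.57 in the Ext1 samples. In both genes the samples fell in the same order, and the groups overlapped. Relative to the first control, the columns were 0.9911 and 1.0188 times as high in the other controls and 0.9894, 1.0239 and 1.0213 times as high in the Ext1 samples. These constants accounted for every value: 0 of the 97 members, and 0 of all 32635 probe sets, departed from them by more than the rounding of the second decimal. All 30 ordered pairs of columns were proportional in this sense. The 6 columns were therefore used as 1 profile, the mean of the columns, which belongs to neither group and has no error (n = 1).

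**Figure D1:**
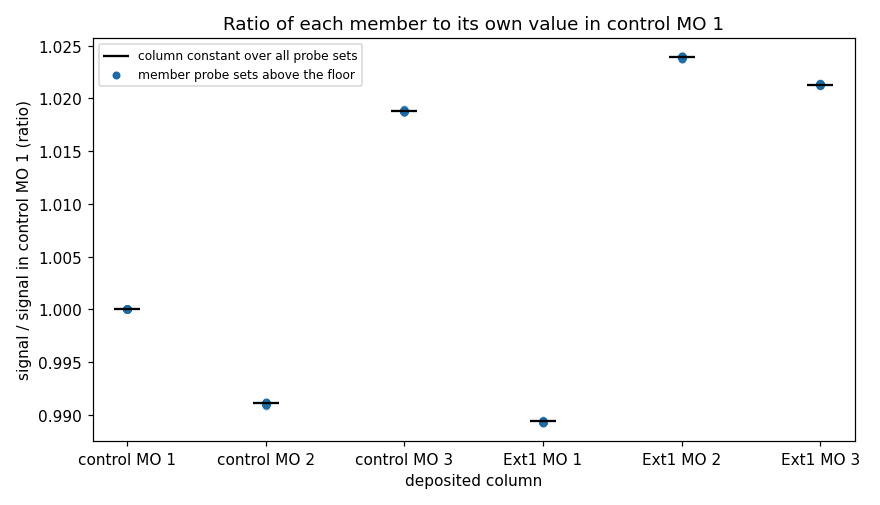
The signal of each member probe set above the control floor is plotted, for each of the 6 deposited columns, as a ratio to its own signal in the first control column (no unit). Points are probe sets, black bars are the constants of the columns (0.9911, 1.0188, 0.9894, 1.0239 and 1.0213 after the first), and the members lie on the bars within rounding.

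Each signal was set against a floor, the highest of the 17 Affymetrix Tag controls, which carry sequences that embryo RNA is not meant to contain. The floor was 24.4 in the profile. The Tag controls ran from 0.81 to the floor with a median of 2.62, and the next highest was at 23.4. The floor thus did not rest on 1 stray control. Only 3 Tag controls were above 20, however, and the highest of the others was at 12.9. A signal above the floor was counted as called. Because each probe set has its own background and response, levels of different probe sets do not rank the amounts of their RNA. A call gives only the side of this floor. Counts at 2, 5 and 100 times the floor likewise give only the side of those cuts. Stage markers fell on both sides of it. All 15 measured copies of early gastrula markers (tbxt, gsc, chrd.1, mix1, sox17a, vegt, ventx2.1 and sox3) were above it, from 817.27 to 12260. Of 15 copies of markers of later differentiated tissues, such as actc1 of muscle, hba1 of blood and ins of the pancreas, 14 were at or below it and 1, the muscle gene myl2.S, was at 30.1. These markers are no test of the floor. Both lists and the floor were chosen with earlier results of these data known, and the early markers lay far above it.

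Among the members, 67 of 97 probe sets were above the floor (69.1%), beside 78.6% of the 15495 probe sets with 1 symbol and 72.0% of all that are not controls. Taken at the brightest probe set, 48 of 66 gene copies were called (72.7%), beside 80.4% of all 11303 named copies. At the floor the shares of the members were thus below the background. For gene copies the gap was wider at 2 times the floor (59.1% beside 74.1%) and at 5 times (48.5% beside 65.4%). Above 100 times the floor the shares were 13.6% and 13.2%. These differences were not tested. Members had 1.47 probe sets per copy and all named copies 1.37, so the members had slightly more chances per copy. By role, the calls covered 6 of 14 ligand copies, 9 of 11 Frizzled copies, 7 of 7 co-receptor copies, 9 of 14 copies of secreted antagonists, 7 of 9 of transducers, 4 of 5 of nuclear factors, 5 of 5 of planar polarity proteins, and the 1 R-spondin copy. Differences between roles were not tested, and each role holds at most 14 copies.

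**Figure D2:**
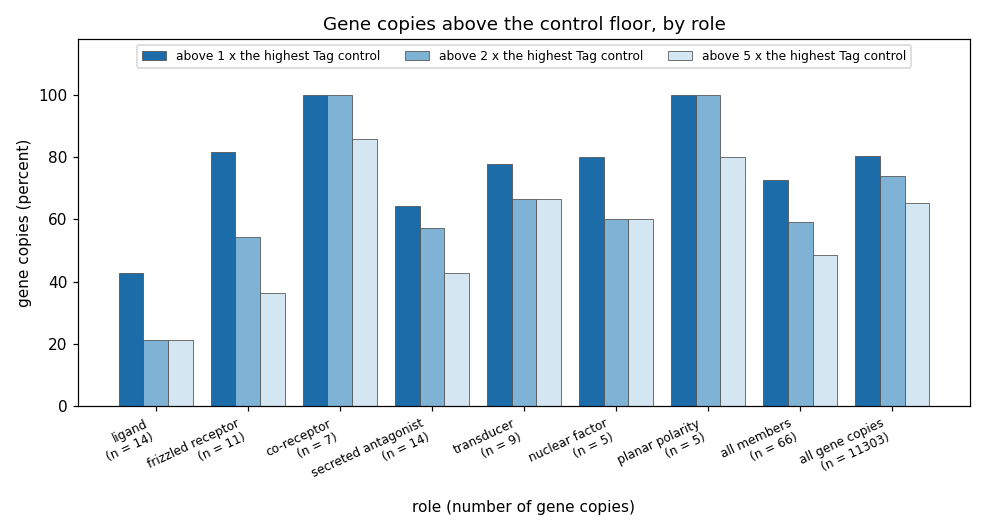
Bars give the share of gene copies (percent, at the brightest probe set) above 1, 2 and 5 times the highest Tag control. They are drawn for each role, for all members together and for all named gene copies, with the number of copies under each group. Ligands have the lowest bars at 1 times the floor (42.9%), co-receptors and planar polarity genes reach 100%, and all named copies stand at 80.4%; the single R-spondin copy is not drawn.

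Fewer than 1 in 2 of the Wnt ligand copies were called (42.9%, beside 80.4% of all named copies). Above 2 times the floor there were 3 (21.4%, beside 74.1%). Called copies were wnt8a.L, wnt11b.L, wnt5b.S, wnt5a.S, wnt5a-a and wnt7b.L, and the last 3 of these were under 2 times the floor. The gene wnt8a.L, the zygotic ligand of the ventrolateral marginal zone, had a profile signal of 3697, which was 151 times the floor. For wnt11b.L, whose maternal RNA is localised to the vegetal pole of the egg and which acts in axis formation and gastrulation movements, the signals were 2074.06, 2055.58 and 2113.00 in the control columns and 2052.01, 2123.63 and 2118.26 in the Ext1 columns. These are the same constants as for wnt8a.L, and the profile signal of 2089 was 85.6 times the floor. The third clear ligand was wnt5b.S at 228, or 9.32 times the floor.

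Closer to the floor lay wnt5a, a ligand of the planar polarity branch. The copy wnt5a.S was at 41.7. The entry wnt5a-a, which carries no subgenome suffix, had 1 probe set at 27.5, with an identifier type (_x_at) that marks probes able to cross-hybridise, and another at 3.71, so its call rested on the first. Whether this entry repeats a gene counted as wnt5a.S is unknown here. For wnt7b.L 1 probe set was at 26.5 and the other at 20.7, on either side of the floor. None of these 3 calls held at 2 times the floor (48.8).

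The other 8 ligand copies were at or below the floor. Just under it were wnt8b.S at 19.4 and wnt11.S, a gene distinct from wnt11b, at 18.9. Far under it were wnt1.L at 3.68, wnt3a.S at 3.69, wnt6.S at 3.71 at its brighter probe set, wnt2b-b at 3.02, wnt4.L at 2.29 and wnt2b.L at 1.04. Several of these genes, among them wnt1 and wnt3a, are best known from the neural tube and brain of later stages. A signal under the floor says that the probe set did not rise above the highest Tag control, not that the RNA was absent. At the brightest probe set, all of these 8 copies but wnt4.L and wnt2b.L were above the Tag median of 2.62. Of these 8 copies, wnt2b-b and wnt6.S had 2 probe sets and the others had 1.

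**Figure D3:**
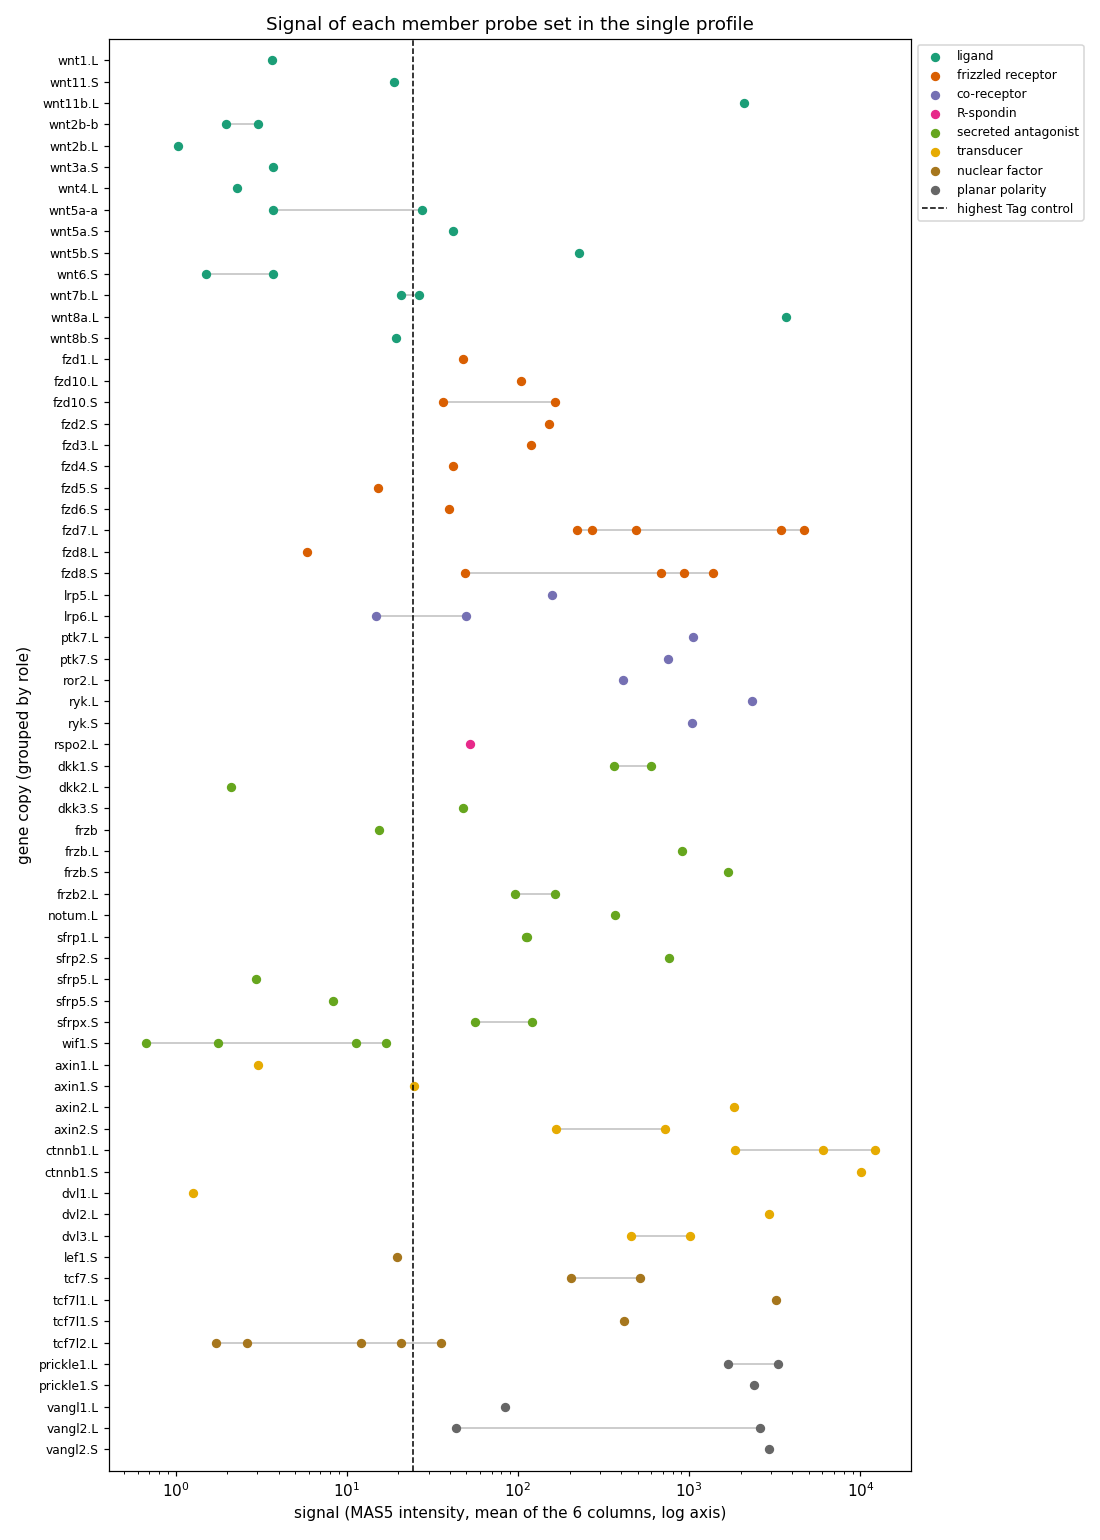
Each point is 1 member probe set, placed by its signal in the profile (MAS5 intensity, log axis) on the line of its gene copy, coloured by role; grey lines join probe sets of 1 copy and the dashed line is the highest Tag control (24.4). Most ligand copies lie left of the dashed line, with wnt8a.L at 3697 and wnt11b.L at 2089 far to its right, while all co-receptor and planar polarity copies have a point to the right of it.

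Among the Frizzled receptors, the proteins with a cysteine-rich domain that bind the ligand, 9 of 11 copies were called. This was 81.8%, beside 80.4% of all named copies. Frizzled 7 is a maternal and zygotic receptor of the Xenopus embryo with roles in both branches. Its L copy was read by 5 probe sets at 220.86, 270.86, 486.52, 3430 and 4678, and all of them were called. All 4 probe sets of fzd8.S, a Frizzled gene expressed in the organizer, were called as well, at 48.9, 680, 934 and 1371. The L copy of fzd8 had 1 probe set, at 5.83. The difference between the copies of fzd8 therefore rests on 1 probe set, and whether that probe set responds to its transcript was not tested.

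Above 5 times the floor there were also fzd2.S at 151, and fzd10.S at 165 at the brighter of its probe sets and 36.4 at the other. Between 2 and 5 times the floor were fzd3.L at 119 and fzd10.L at 104. The copies fzd1.L, fzd4.S and fzd6.S, at 47.9, 41.7 and 39.6, were above the floor but not above 2 times the floor. The only other uncalled Frizzled copy was fzd5.S at 15.2.

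Every measured co-receptor copy was called (7 of 7, beside 80.4% of all named copies). LRP5 and LRP6 are the partners of Frizzled in the beta-catenin branch. Their signals were 158 for lrp5.L and 49.6 for lrp6.L, whose second probe set was under the floor at 14.8. The receptor-like kinases act mostly outside the beta-catenin branch. Ryk, an atypical Wnt receptor, was at 2335 for its L copy and 1041 for its S copy. Ptk7, which acts in planar polarity of vertebrates, was at 1046 for L and 747 for S. Ror2, a receptor for Wnt5a, was at 410 for its L copy. No probe set with the symbol ror1 was among the members. The 1 agonist, rspo2.L, which encodes an R-spondin that protects Frizzled and LRP6 from removal at the membrane, was at 52.6 or 2.16 times the floor.

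Secreted antagonists were called in 9 of 14 copies (64.3%, beside 80.4% of all named copies), among them genes of the organizer. Dickkopf 1 binds LRP5 and LRP6 and is needed for head formation in Xenopus. For dkk1.S the brighter probe set gave 593.83, 588.54 and 604.98 in the control columns and 587.52, 608.02 and 606.48 in the Ext1 columns, again in the order set by the constants. In the profile it was at 598 and the other probe set at 362, both called. The Frizzled-related protein Frzb, which binds Wnt8 in Xenopus, was called for both copies, at 1683 for frzb.S and 902 for frzb.L. The entry frzb without a suffix was not, at 15.4. Its gene ID was not matched to the RefSeq gene list, so its relation to the other copies is unknown here. The gene frzb2.L, known in Xenopus as crescent, had its probe sets at 165 and 95.8.

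Further copies of the antagonist role above the floor were sfrp2.S at 761, notum.L at 370, sfrp1.L at 112 for both of its probe sets, and dkk3.S at 47.5. Secreted Frizzled-related proteins bind Wnt ligands, and Notum is an enzyme that removes the lipid from them. Dickkopf 3 is a diverged member of its family, and its signal was under 2 times the floor. Copies were placed in this role by gene name, those of dkk2 and dkk3 included, and their action on Wnt signalling was not tested. The gene sfrpx.S was at 121 and 56.3, with both probe sets of the identifier type _s_at, whose probes can match more than 1 transcript. The dimmer probe set of sfrp1.L, at 111.70, was of this type as well. Below the floor were sfrp5.S at 8.25, sfrp5.L at 2.94, dkk2.L at 2.12 and wif1.S, the Wnt inhibitory factor. All 4 probe sets of wif1.S were below it, from 0.67 to 17.1. Secreted antagonists were thus called in a larger share of copies (64.3%) than ligands (42.9%), and both shares were below that of all named copies (80.4%). These differences were not tested.

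Transducers of the signal inside the cell were called in 7 of 9 copies (77.8%, beside 80.4% of all named copies). Beta-catenin was at 12151 for its brightest L probe set, 498 times the floor, with the other L probe sets at 6067 and 1844, and at 10013 for ctnnb1.S. Dishevelled proteins act below Frizzled in both branches. Of these genes, dvl2.L was at 2937, and dvl3.L at 1009 and 454, while the single probe set of dvl1.L was at 1.27. Axin 2, a scaffold of the destruction complex whose gene is itself a target of beta-catenin, was at 1830 for its L copy and at 726 and 167 for its S copy. Axin 1, the scaffold made in most cells, was at 3.02 for its L copy and at 24.6 for its S copy. The axin1.S signal was 1.01 times the floor, the closest of all members, so it lay at the floor rather than above it by any margin.

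Nuclear factors were called in 4 of 5 copies (80.0%, beside 80.4% of all named copies). The gene tcf7l1 encodes the maternal TCF factor of Xenopus that represses dorsal genes until beta-catenin acts on it. Its L copy was at 3209 and its S copy at 418. The related tcf7.S was at 519 and 203. For tcf7l2.L only 1 of 5 probe sets was called, at 35.4, and the others were at 20.6, 12.1, 2.61 and 1.73. The gene lef1.S, a factor of the same family, was at 19.6 and not called.

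All planar polarity copies were called (5 of 5, beside 80.4% of all named copies). Vangl2, a membrane protein of the polarity core, was at 2917 for its S copy and at 2578 for the brighter of its L probe sets, with the dimmer one at 43.7. Its relative vangl1.L was at 84.4. Prickle1, its cytoplasmic partner, was at 3279 and 1685 for its L copy and at 2395 for its S copy. Over all roles, 9 of 66 copies (13.6%) were above 100 times the floor (2442), beside 13.2% of all named copies. These 9 were wnt8a.L, fzd7.L, ctnnb1.L, ctnnb1.S, dvl2.L, tcf7l1.L, prickle1.L, vangl2.L and vangl2.S. At 2 times the floor 39 copies remained (59.1%, beside 74.1% of all), and at 5 times 32 (48.5%, beside 65.4%).

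For 12 members both gene copies were measured. Both were called in 9 of these: axin2, ctnnb1, frzb, fzd10, prickle1, ptk7, ryk, tcf7l1 and vangl2. The same count was not made over all named pairs, and 80.4% of all named copies were called. Only the S copy was called for fzd8 and axin1, and neither for sfrp5. The call of axin1.S lay at the floor, so fzd8 was the 1 pair whose copies fell clearly on opposite sides. Whether the probes of 1 copy also read RNA of the other was not tested, since probe sequences were not used here. Of the 97 identifiers, 10 were of the type _a_at, whose probes are shared by transcripts taken as 1 gene, 4 were _s_at and 1 was _x_at. Among the 9 pairs with both copies called, ptk7.S, tcf7l1.S and prickle1.S were each read by 1 probe set, of the type _a_at, and the brighter one of prickle1.L was _s_at. The probe sets of wnt4.L, wnt8a.L, wnt11b.L and dvl2.L were _a_at as well.

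**Figure D4:**
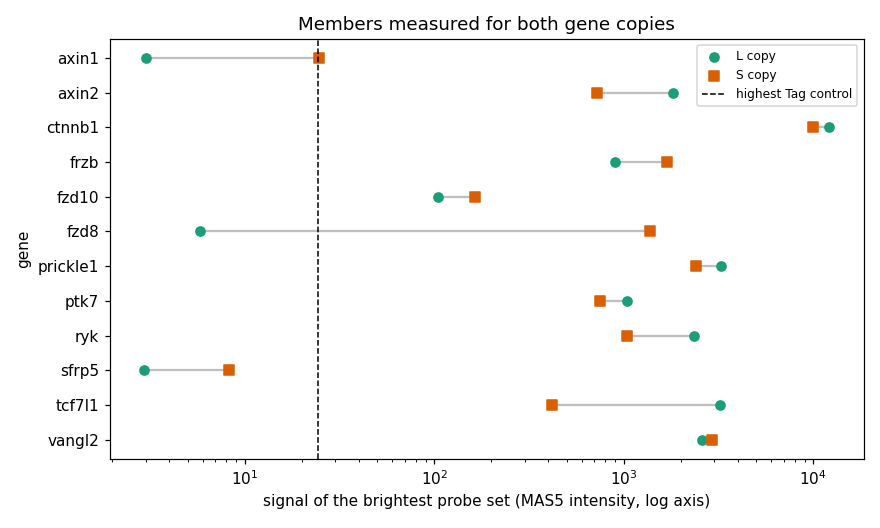
For each of the 12 genes measured at both copies, the signal of the brightest probe set of the L copy (circle) and of the S copy (square) is plotted (MAS5 intensity, log axis), with the highest Tag control as a dashed line at 24.4. In 9 genes both symbols lie right of the line, fzd8 has its L copy at 5.83 and its S copy at 1371, and both copies of sfrp5 lie left of it.

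Of the 66 copies, 46 were read by 1 probe set and 20 by several. Among these 20, all probe sets were called in 13 and none in 3. The 4 with calls on both sides were wnt5a-a, wnt7b.L, lrp6.L and tcf7l2.L. The same split was not counted over all named copies with several probe sets. In the 13 copies with every probe set called, the brightest was 1.01 to 59 times the dimmest, with a median of 2.56, and the ratio was over 10 in vangl2.L, fzd8.S and fzd7.L. The values given are thus those of probe sets, and 15 of the 18 uncalled copies rested on 1 probe set each. These were wnt1.L, wnt2b.L, wnt3a.S, wnt4.L, wnt8b.S, wnt11.S, fzd5.S, fzd8.L, dkk2.L, frzb, sfrp5.L, sfrp5.S, axin1.L, dvl1.L and lef1.S. The 5 probe sets just above the floor belonged to axin1.S (24.6), wnt7b.L (26.5), wnt5a-a (27.5), tcf7l2.L (35.4) and fzd10.S (36.4). The 5 just below it belonged to wnt7b.L (20.7), tcf7l2.L (20.6), lef1.S (19.6), wnt8b.S (19.4) and wnt11.S (18.9).

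Other genes of the pathway, from a list of 135 symbols chosen for their known roles, were measured for 124 copies of 91 genes. Of these 112 (90.3%) were above the floor, beside 80.4% of all named copies, a difference that was not tested. Copies were again taken at their brightest probe set. The listed copies had more probe sets each than all named copies (1.37 per copy), with 12 for camk2g.S. They thus had more chances per copy to pass this cut or a higher one. The calls covered 7 of 8 copies for Wnt secretion, 9 of 12 for modulators outside the cell or at the membrane, and 30 of 32 for transducers. They also covered 23 of 23 for nuclear genes, 19 of 21 for polarity and calcium effectors, and 24 of 28 for target genes. The nuclear genes include the copies of tcf3. Those of sox3, sox17a and tbxt are also among the early gastrula markers, so the lists are not separate. The list was not limited to genes specific to Wnt signalling, and holds genes of general cell function such as rhoa, cdc42 and hdac1. Its shares are thus not a trait of the pathway. The counts describe this profile only.

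Signals above 100 times the floor were found in 28 of these copies (22.6%), beside 13.2% of all named copies, and the difference was not tested. Transducers gave 10. The casein kinase 1 genes csnk1a1.L, csnk1a1.S, csnk1g1.S and csnk1g2.L were at 11048, 2594, 2802 and 6384, and csnk2b.S, which encodes a subunit of casein kinase 2, was at 10317. The GSK3 binding protein gene frat1.S was at 2630, and dact1.L, which encodes a partner of Dishevelled, at 2916. The junction genes jup.L and ctnna1.S were at 3869 and 3437, and caprin2.L at 5502. Among nuclear genes there were bcl9.L, a cofactor of beta-catenin, at 4880, the corepressor tle2.L at 3327, and hdac1.S and hdac1.L at 4925 and 3845. The list also held sox3.S and sox3.L, at 12260 and 9789, whose product can bind beta-catenin, and tcf3.L at 5402, the symbol now used for an E protein gene rather than for a TCF/LEF factor.

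The heparan sulfate carriers that act on Wnt signalling, sdc4.L and gpc4.L, were at 4950 and 3276. The secreted antagonist cer1.S, an organizer product that binds Wnt, BMP and Nodal ligands, was at 5448. In the polarity group were rhoa.L at 12471, cdc42.L at 2531 and calr.L and calr.S at 4697 and 3223. For secretion there was vps35.S at 3091, a part of the retromer that recycles the Wnt carrier Wls. The targets were tbxt.S, tbxt.L and ccnd1.S at 5914, 5331 and 4619.

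At or below the floor were 12 copies. They were the Dkk receptor genes kremen1.S and kremen2.S at 5.81 and 15.2, shisa2.L at 12.8, gsk3b.L at 3.62, tnks2.S at 20.3, vps35.L at 3.01, invs.L at 0.58 and scrib.S at 3.85. The targets among them were the organizer genes sia2.S at 11.5 and nodal3.2.L at 12.9, with hesx1.S at 19.8 and sp5.S at 1.86. The related organizer genes sia1.L and nodal3.1.L were above the floor, at 50.0 and 868. Each of these 12 was read by 1 probe set. For 4 of them the other copy was above the floor. It was at 1054 for sp5.L, 3091 for vps35.S, 45.9 for invs.S and 45.7 for hesx1.L.

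**Figure D5:**
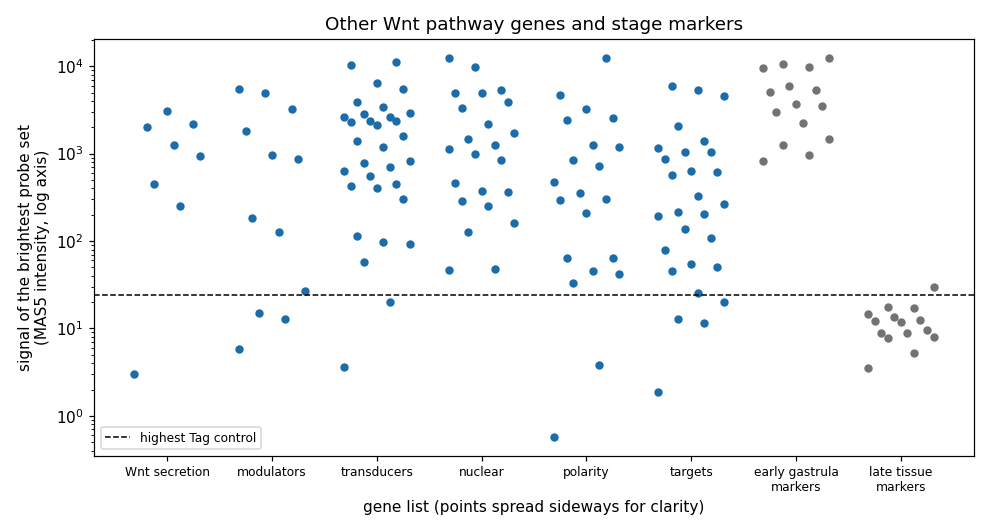
Each point is a gene copy at its brightest probe set (MAS5 intensity, log axis) in the lists of other Wnt pathway genes (blue) and of stage markers (grey), with the highest Tag control as a dashed line at 24.4. All 23 copies of nuclear genes and all 15 of early gastrula markers lie above the line, and 14 of 15 copies of late tissue markers lie at or below it. The copies of sox3 and sox17a are drawn both as nuclear genes and as early gastrula markers. Those of tbxt are drawn both as targets and as early gastrula markers.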

How the data were processed

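The deposited values are intensities per probe set on a linear scale, and the submitters' processing notes name MAS5. For its version, scaling target and detection calls, nothing is stated in the sources used here. The 97 member probe sets were found by platform symbol. Gene IDs of 92 were matched to a RefSeq gene list (assembly Xenopus_laevis_v10.1), which changed 0 symbols. The 5 probe sets of frzb, wnt2b-b and wnt5a-a were not matched, so these entries may repeat gene copies counted under other symbols. Of 103 gene copies in that list that meet the naming rule, 63 were measured and 40 were not analysed here.

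For each ordered pair of columns, it was computed whether 1 factor turns one into the other for every probe set, each value taken as known within 0.005. This step was tested on simulated columns. Since all pairs passed, the mean of the 6 columns was used, no groups were compared, and the limma fit planned for separate columns was not run. The number of arrays limits the precision of array data; here the proportional columns leave 1 profile with no replicate error. A gene copy was taken at its brightest probe set. All 66 member copies are named, and of the other pathway genes those at or below the floor or above 100 times the floor, with sp5.L, invs.S, hesx1.L, sia1.L and nodal3.1.L named beside related genes after their values were seen. Members, lists and the floor were chosen with earlier results of these data known. No sequences were used. Python 3.11.15, numpy 2.4.6, pandas 2.3.3 and matplotlib 3.10.9 were used.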

Additional observations from a re-analysis of the deposited data

How the results depend on the processing

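The count of called member copies (48 of 66) ran from 32 at 5 times the floor (48.5%, beside 65.4% of all named copies) to 62 with the median Tag control as the floor (93.9%, beside 95.6%). It was 45 with copies at their median probe set (68.2%, beside 79.3% of all) and 44 at their dimmest (66.7%, beside 75.4% of all). Without _s_at, _x_at and _a_at probe sets it was 40 of 58 (69.0%, beside 79.5%). With L and S joined it was 39 of 53 (73.6%, beside 81.0%), where wnt5a-a and wnt2b-b stayed apart from wnt5a and wnt2b. In each of these settings the members' share was below that of all named copies. At 2 times the floor 9 copies lost their call (axin1.S, dkk3.S, fzd1.L, fzd4.S, fzd6.S, tcf7l2.L, wnt5a-a, wnt5a.S and wnt7b.L), and 104 of 124 other pathway copies were called (83.9%, beside 74.1% of all named copies). Each column alone, or each left out in turn, gave 48 copies and 67 probe sets. Proportional columns must give equal counts, apart from values that rounding moves across the floor. In the second control column alone, 9086 of all 11303 named copies were called, beside 9087 in the profile. Updated symbols changed nothing in these counts. No paired analysis was possible because the columns paired by replicate number hold the same profile.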
